A study of Homo sapiens with 6 samples.

Results

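The HOX cluster genes are the 39 protein-coding genes of the HOXA, HOXB, HOXC and HOXD clusters, taken from a table of 58302 genes as every protein-coding entry named HOX followed by a cluster letter and a paralog number. HOXA has 11 members, HOXB 10, HOXC 9 and HOXD 9. They were measured by RNA sequencing of polyadenylated RNA in ME180, an established human cervical cancer cell line described as epithelial. RNA was taken 48 h after transfection with a small interfering RNA (siRNA) directed at SGK1 (siSGK1, 3 libraries) or with the control siRNA (siControl, 3 libraries). SGK1 encodes a serine/threonine kinase induced by serum and glucocorticoids that acts downstream of phosphoinositide 3-kinase. Both groups are the same line and both were transfected, so the siRNA target is the only labelled difference. The 3 libraries of each group are biological repeats, numbered 2, 3 and 4. The comparison asks how each HOX gene, each cluster and each paralog group differed between the groups.

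HOX genes encode homeodomain transcription factors that give cells their position along the body axis. Within a cluster, genes at the 3′ end (low paralog numbers) act in anterior regions and genes at the 5′ end (high numbers) in posterior regions, and genes with the same number in different clusters descend from one ancestral gene and are called paralogs. In the female reproductive tract, the posterior HOXA genes are expressed in sequence from the oviduct through the uterus and cervix to the vagina. HOX proteins bind DNA with TALE partners such as PBX and MEIS, retinoic acid activates the 3′ genes, and Polycomb and Trithorax (MLL) complexes keep the clusters silent or active.

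Assigned reads ranged from 27262794 to 27874948 in the siControl libraries and from 28405647 to 35242643 in the siSGK1 libraries. SGK1 itself stood at 4.12 ± 0.19 FPKM (fragments per kilobase of transcript and per unit of library size; mean ± SD, n = 3) in siControl and 1.70 ± 0.12 in siSGK1, a log2 change of -1.07 (SE 0.07, limma adjusted p = 1.88e-05). An exact two-sided permutation test of its FPKM gave p = 0.1, the smallest that 3 against 3 allows. All 9 squamous epithelial markers examined had a mean of at least 1 FPKM, and their summed level was 9761 to 10474 FPKM in siControl and 6083 to 7102 in siSGK1. Of 6 fibroblast markers 1 (COL1A1) reached 1 FPKM, with sums of 4.70 to 5.25 in siControl and 4.87 to 5.72 in siSGK1. No marker of 4 endothelial and 5 immune genes reached 1 FPKM, and PECAM1 was at 0. The endothelial sum was 1.39 to 1.66 FPKM in siControl and 0.710 to 0.903 in siSGK1, and the immune sum 0.098 to 0.198 and 0.154 to 0.288. The part of the lower epithelial and endothelial sums in the HOX values was not tested. In bulk RNA, fewer cells expressing a gene and less RNA per cell cannot be told apart.

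HOX genes did not share one direction of change. Of the 39 genes, 26 had a mean of at least 1 FPKM and were tested; 3 rose (HOXB6 and HOXC10 among them) and 4 fell (HOXA11, HOXC12, HOXA7 and HOXB9) in siSGK1 at a limma adjusted p below 0.05. These 7 are 26.9% of the tested HOX genes, against 40.6% of all 11945 genes tested, of which 17.9% were higher and 22.7% lower. The groups did not overlap for 12 of the 26 HOX genes (4 higher, 8 lower), or 46.2%, against 53.4% of all genes. The median log2 change of the 26 HOX genes was -0.0018, with 13 values on each side of 0, and that of all genes was -0.0060. The median size of the change, without its sign, was 0.11 for HOX genes and 0.16 for all genes. Only HOXB6 passed a 1.5-fold change on the log2(FPKM + 0.5) scale, whereas 6.55% of all genes did. The split of 3 higher and 4 lower depended on how libraries were scaled. It was 5 and 3 after scaling to total reads, and 8 and 2 after scaling to a fixed sum of length-corrected values (TPM). Under these 2 scalings the median log2 change of all genes was 0.12 and 0.19. Of all genes, 36.1% were higher and 12.9% lower after total-read scaling, and 47.3% and 9.80% after TPM scaling.

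By cluster, HOXA had 2 genes lower, HOXB had 1 gene higher and 1 lower of 8 tested, HOXC 1 and 1 of 6, and HOXD none of 5. By position, of 8 tested central genes (paralog numbers 4 to 8), 1 rose and 1 fell, and of 15 tested posterior genes (9 to 13), 1 rose and 3 fell. The shares called were 25% of central and 26.7% of posterior genes, against 40.6% of all genes. The median log2 change was 0.06 in HOXA, 0.04 in HOXB, -0.05 in HOXC and -0.03 in HOXD, all within 0.1 of 0. In no paralog group was more than 1 member called. In group 11 all 3 values were negative (HOXA11 -0.58, HOXC11 -0.17, HOXD11 -0.03), and only HOXA11 passed the test. The 4 genes of group 13, the most posterior, had changes from -0.11 to 0.11 and none passed.

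**Figure D1:**
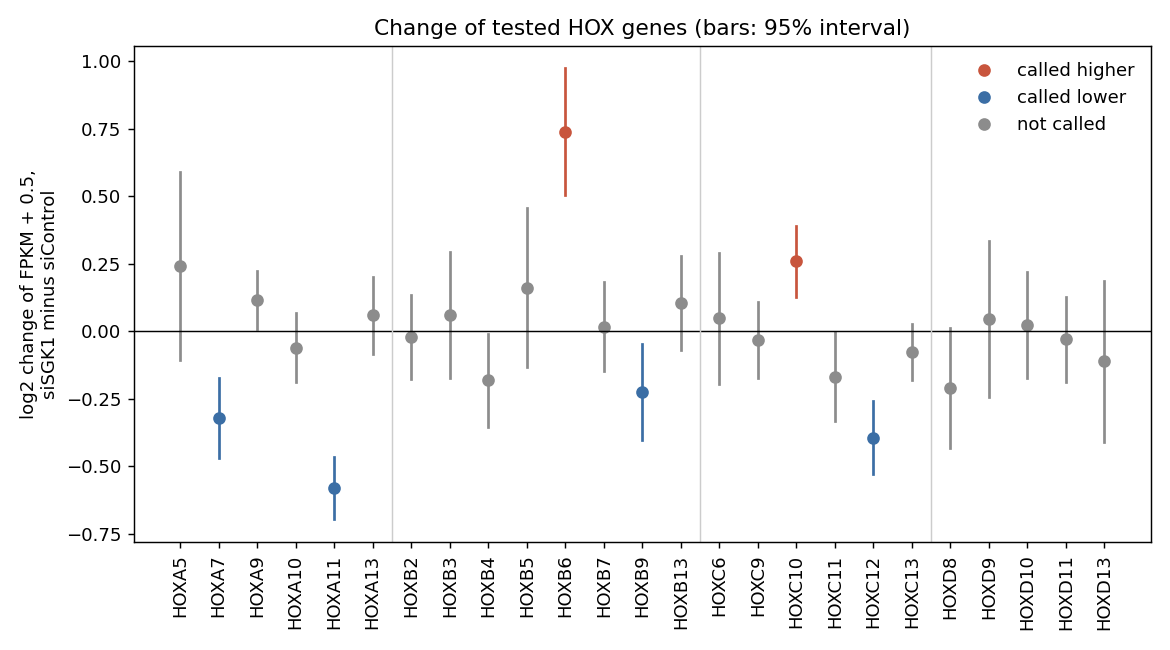
Log2 change of FPKM + 0.5 (siSGK1 minus siControl, vertical axis) of 25 of the 26 tested HOX genes, ordered by cluster and paralog number, with points at the limma estimate and bars for the 95% interval. HOXB6 lies highest at 0.74 and HOXA11 lowest at -0.58, and the 5 HOXD genes all have intervals that include 0.

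Posterior genes gave most of the HOX message in ME180. FPKM is per length, so levels can be compared between genes, with 1 limit. Reads in bases shared with another gene may not be assignable to 1 of them, so levels of heavily shared genes may be understated. Among tested HOX genes, the shared exonic bases run from 0% (HOXB7 and HOXC12 among them) to 62.5% in HOXA7. The order and the shares given here carry that limit. HOXC13 led with a mean of 56.2 FPKM over the 6 libraries, followed by HOXB7 (24.9), HOXC12 (24.7), HOXC10 (16.4) and HOXA9 (8.35). HOXB7 and HOXC12 swapped order between the groups, with HOXC12 above HOXB7 in siControl (28.0 and 24.8) and below it in siSGK1 (21.3 and 25.0). From HOXB2 (7.04) through HOXD10 (6.93) to HOXA13 (6.88), neighbours in the order lay within each other's spread between libraries. The 16 posterior genes made up 74.0% ± 1.0 of the summed HOX FPKM in siControl and 71.9% ± 1.6 in siSGK1 (SD, n = 3), and the ranges of the libraries overlapped. HOXC12 and HOXC13 together made up 40.3% ± 0.8 in siControl and 36.7% ± 1.8 in siSGK1, with no overlap between libraries. The sum over all 39 genes was 212.7 ± 4.3 FPKM in siControl and 207.0 ± 3.2 in siSGK1. The shares, unlike the sum, do not depend on library scaling, and neither was tested.

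**Figure D2:**
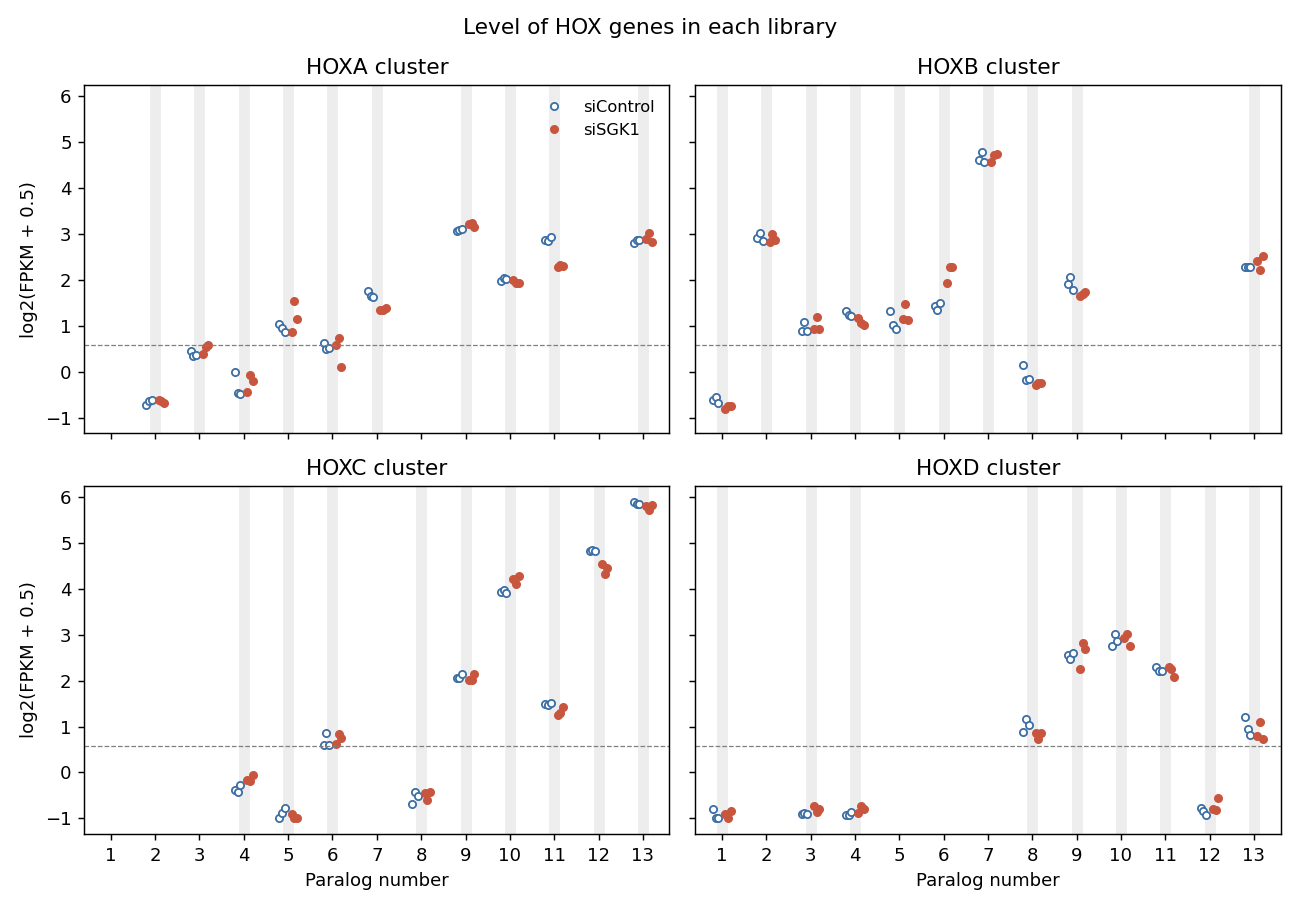
Level of 38 of the 39 HOX genes in each library as log2(FPKM + 0.5) (vertical axis) by paralog number (horizontal axis), with 1 panel per cluster; open points are siControl libraries, filled points siSGK1 libraries, and the dashed line marks 1 FPKM. HOXC levels climb from paralog 8 to paralog 13 apart from paralog 11, and HOXC13 is the highest point in every library.

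HOXA11, a posterior gene of the uterus and lower reproductive tract, fell most. It lies on chromosome 7 from 27181510 to 27185223 on the minus strand (GRCh38, as in the deposited table; ENSG00000005073). Its level was 6.82, 6.72 and 7.19 FPKM in the siControl libraries and 4.38, 4.54 and 4.45 in the siSGK1 libraries. All siSGK1 libraries lay below all siControl libraries, with 297 to 376 reads against 402 to 447. The mean went from 6.91 ± 0.25 to 4.46 ± 0.08 FPKM (SD, n = 3), 1.55-fold lower, with a log2 change of -0.58 (SE 0.05, limma adjusted p = 7.70e-05). The call held in all 17 alternatives, with log2 changes from -0.63 to -0.42. Of its exonic bases, 31.1% are shared with the antisense gene HOXA11-AS, and the library kit named in the labels is not stated to mark strand, so reads in the shared bases cannot be assigned to one of them. HOXA11-AS had 5.88, 5.58 and 6.59 FPKM in siControl and 5.70, 5.25 and 5.61 in siSGK1, which overlap, and was not called (log2 change -0.11, limma adjusted p = 0.224). It shares 59.3% of its own exonic bases with other entries, HOXA11 among them, so its level has the same limit.

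HOXA7, a central gene, also fell. Its level was 2.88, 2.65 and 2.58 FPKM in siControl and 2.05, 2.04 and 2.11 in siSGK1. Both groups stood apart, and the mean went from 2.71 ± 0.15 to 2.06 ± 0.04 FPKM (SD, n = 3; log2 change -0.32, SE 0.07, limma adjusted p = 0.00492). The call ended only under TPM scaling (-0.17, adjusted p = 0.0902). HOXA7 (chromosome 7, 27153716 to 27157936, minus strand) shares 62.5% of its exonic bases with the antisense HOXA-AS3, whose own mean was 0.219 FPKM.

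The start regions of these HOXA genes that fell are printed here from RefSeq (GRCh38.p14) because they are the only 2 of the 7 called genes found in the promoter table given, which covers 20 of the 39 HOX genes. Each run goes from 250 bases before to 50 after the start site, 5′ to 3′ on the gene's minus strand, and capitals mark matches to the motifs searched on both strands.
HOXA11, chr7:27185183-27185482: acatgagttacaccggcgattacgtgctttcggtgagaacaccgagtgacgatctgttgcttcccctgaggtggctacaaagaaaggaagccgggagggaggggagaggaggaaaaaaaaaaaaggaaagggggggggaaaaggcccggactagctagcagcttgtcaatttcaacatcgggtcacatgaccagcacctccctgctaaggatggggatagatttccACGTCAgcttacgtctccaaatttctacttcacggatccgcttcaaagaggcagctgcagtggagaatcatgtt
HOXA7, chr7:27156626-27156925: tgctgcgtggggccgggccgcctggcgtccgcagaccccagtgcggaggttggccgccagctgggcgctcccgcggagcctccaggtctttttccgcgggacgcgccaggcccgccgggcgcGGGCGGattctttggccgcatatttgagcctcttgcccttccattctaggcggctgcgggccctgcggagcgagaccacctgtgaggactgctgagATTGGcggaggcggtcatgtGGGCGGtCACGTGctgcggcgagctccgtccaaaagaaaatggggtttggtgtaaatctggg
The HOXA11 window holds 13 CpG dinucleotides and 1 match to the cyclic AMP response element core TGACGT, on the other strand at -24. The HOXA7 window holds 31 CpG, GC boxes (GGGCGG) at -128 and -12, a CCAAT box on the other strand at -32 and the E-box CACGTG at -5. Of 35116 windows in the table, 7.98% hold TGACGT, 45.0% GGGCGG, 34.6% CCAAT and 7.26% CACGTG, and the median CpG count is 14, against 22 over 27 HOX windows. Neither window holds TATAAA (11.5% of all windows), GTAAACA (the FOXO core, 3.42%) or TGATNNAT (a PBX-HOX composite, 7.40%). A match describes the letters only, and binding was not measured.

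Another central gene of the cluster was not called. HOXA5, a central gene of lung and gut, had 1.54, 1.42 and 1.33 FPKM in siControl and 1.34, 2.42 and 1.71 in siSGK1, which overlap. The HOXA5 log2 change of 0.24 (95% interval -0.11 to 0.59) was called only without siSGK1 replicate 2, where it was 0.40 (limma adjusted p = 0.0424).

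The posterior HOXA genes that did not pass stand on either side of HOXA11 in the cluster. HOXA9, expressed in the oviduct and in blood progenitors, had 7.81, 8.04 and 8.11 FPKM in siControl and 8.76, 8.94 and 8.43 in siSGK1. These did not overlap, and the change of 0.12 (95% interval 0.01 to 0.23) missed the threshold (limma adjusted p = 0.0804). HOXA10, a uterine gene, had 3.42, 3.63 and 3.57 FPKM against 3.48, 3.32 and 3.34, with a change of -0.06 (-0.19 to 0.07). HOXA13, the gene of the lower reproductive tract and hindgut, had 6.53, 6.82 and 6.80 FPKM against 6.87, 7.65 and 6.59, with a change of 0.06 (-0.08 to 0.20). HOXA9 overlaps the antisense HOXA10-AS and shares 27.04% of its exonic bases with other genes, and HOXA10 26.3%.

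HOXB6, a central gene active in the developing limb and in blood, rose most. It lies on chromosome 17 from 48595751 to 48604992 on the minus strand (ENSG00000108511). Its level was 2.18, 2.06 and 2.32 FPKM in siControl against 3.29, 4.39 and 4.35 in siSGK1. Every siSGK1 library lay above every siControl library, with replicate 2 the lowest of its group. The mean went from 2.187 ± 0.13 to 4.01 ± 0.62 FPKM (SD, n = 3), a ratio of 1.83, with a log2 change of 0.74 (SE 0.10, limma adjusted p = 7.54e-04). The call held in all 16 alternatives that tested it, with changes from 0.65 to 1.01. HOXB6 shares 32.9% of its exonic bases with HOXB3 and the antisense HOXB-AS3. HOXB-AS3 had 1.42, 1.53 and 1.42 FPKM in siControl against 1.51, 2.30 and 2.24 in siSGK1, with siSGK1 replicate 2 lowest of its group as for HOXB6. The HOXB-AS3 groups overlapped, and its log2 change of 0.35 just missed the threshold (SE 0.13, limma adjusted p = 0.0546) and was called in 5 of 16 alternatives. Its part in the HOXB6 value was not tested. HOXB3 was not called (1.34, 1.63 and 1.34 FPKM in siControl, 1.41, 1.77 and 1.40 in siSGK1; change 0.06, 95% interval -0.17 to 0.29).

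Genes on both sides of HOXB6 did not pass. HOXB5, a central gene of the enteric nervous system, had 2.02, 1.53 and 1.40 FPKM in siControl and 1.73, 2.26 and 1.70 in siSGK1, which overlap (change 0.16, 95% interval -0.13 to 0.46). HOXB7, the most abundant HOXB gene, had 23.9, 27.2 and 23.2 FPKM against 23.1, 25.8 and 26.3 (change 0.02, -0.15 to 0.18). HOXB4, a gene of blood stem cells, had 2.01, 1.86 and 1.83 FPKM against 1.74, 1.59 and 1.52. HOXB4 groups did not overlap, but its change of -0.18 missed the threshold (limma adjusted p = 0.0883). HOXB2, an anterior hindbrain gene, had 6.98, 7.62 and 6.69 FPKM against 6.64, 7.55 and 6.78 (change -0.02, -0.18 to 0.13).

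At the posterior end of HOXB, HOXB9 was called lower at the edge of the threshold. Its level was 3.23, 3.67 and 2.96 FPKM in siControl and 2.64, 2.75 and 2.82 in siSGK1, without overlap. The HOXB9 change was -0.22 (SE 0.08, limma adjusted p = 0.0491), and the call was lost in 13 of 16 alternatives, with the value at -0.05 (adjusted p = 0.626) under TPM scaling and -0.10 (adjusted p = 0.308) under total-read scaling. Leaving out any 1 library other than siControl replicate 4 also ended it, and without siControl replicate 3 the change was -0.15 (adjusted p = 0.170). HOXB13, known from prostate and hindgut, had 4.39, 4.32 and 4.39 FPKM against 4.85, 4.18 and 5.24 (change 0.11, 95% interval -0.07 to 0.28). HOXB13 was called higher without siSGK1 replicate 3 (0.19, limma adjusted p = 0.0397).

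In HOXC, posterior genes with HOXC11 as the only coding HOX gene between them moved in opposite directions. HOXC12, a gene of hair follicle and limb, lies on chromosome 12 from 53954834 to 53958956 on the plus strand (ENSG00000123407). Its level was 27.7, 28.5 and 27.9 FPKM in siControl and 22.9, 19.5 and 21.4 in siSGK1. Its siControl libraries were close together and all above the siSGK1 libraries. HOXC12 fell from 28.0 ± 0.38 to 21.3 ± 1.7 FPKM (SD, n = 3), 1.32-fold, with a log2 change of -0.39 (SE 0.06, limma adjusted p = 0.00116). HOXC10, active in hindlimb and spinal cord, lies on the same strand from 53985065 to 53990279 and had 14.8, 15.3 and 14.4 FPKM in siControl and 18.0, 16.7 and 19.1 in siSGK1. HOXC10 rose from 14.9 ± 0.43 to 17.9 ± 1.2 FPKM, 1.21-fold, with a log2 change of 0.26 (SE 0.06, limma adjusted p = 0.00738). Both calls held in all 17 alternatives, with HOXC12 from -0.45 to -0.20 and HOXC10 from 0.21 to 0.47.

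The remaining tested HOXC genes did not pass. HOXC11, which lies between HOXC12 and HOXC10, had 2.32, 2.29 and 2.35 FPKM in siControl and 1.88, 1.97 and 2.21 in siSGK1. These did not overlap, and the change of -0.17 (95% interval -0.33 to -0.0026) missed the threshold (limma adjusted p = 0.0972). HOXC13, a regulator of hair and nail keratins, had 59.3, 56.9 and 56.8 FPKM against 55.2, 52.5 and 56.4. Its groups did not overlap, but the change was -0.08 (-0.18 to 0.03) and its sign followed the scaling: 0.02 after quantile normalization, 0.06 after total-read scaling and 0.13 (limma adjusted p = 0.0135) after TPM scaling. HOXC9 had 3.68, 3.67 and 3.95 FPKM against 3.57, 3.56 and 3.90, with a change of -0.03 (-0.17 to 0.11). HOXC6, a central gene known from breast and prostate tumours, had 1.02, 1.32 and 1.01 FPKM against 1.04, 1.28 and 1.19, with a change of 0.05 (-0.19 to 0.29).

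No tested HOXD gene was called. HOXD8 had 1.33, 1.76 and 1.55 FPKM in siControl and 1.32, 1.16 and 1.32 in siSGK1, with no overlap and a change of -0.21 (95% interval -0.43 to 0.01, limma adjusted p = 0.120). HOXD9 had 5.40, 5.03 and 5.55 FPKM against 4.29, 6.54 and 5.96. HOXD9 had the widest spread of the tested HOXD genes among the siSGK1 libraries (SD 1.17 FPKM), with a change of 0.05 (-0.24 to 0.34). HOXD10, a limb and spinal cord gene, had 6.27, 7.59 and 6.75 FPKM against 7.14, 7.59 and 6.26 (change 0.02, -0.17 to 0.22). HOXD11, a forearm gene, had 4.43, 4.11 and 4.15 FPKM against 4.42, 4.26 and 3.75 (change -0.03, -0.19 to 0.13). HOXD13, the digit gene, overlapped between the groups as well, with 1.80, 1.43 and 1.26 FPKM against 1.245, 1.64 and 1.16 (change -0.11, -0.41 to 0.19).

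**Figure D3:**
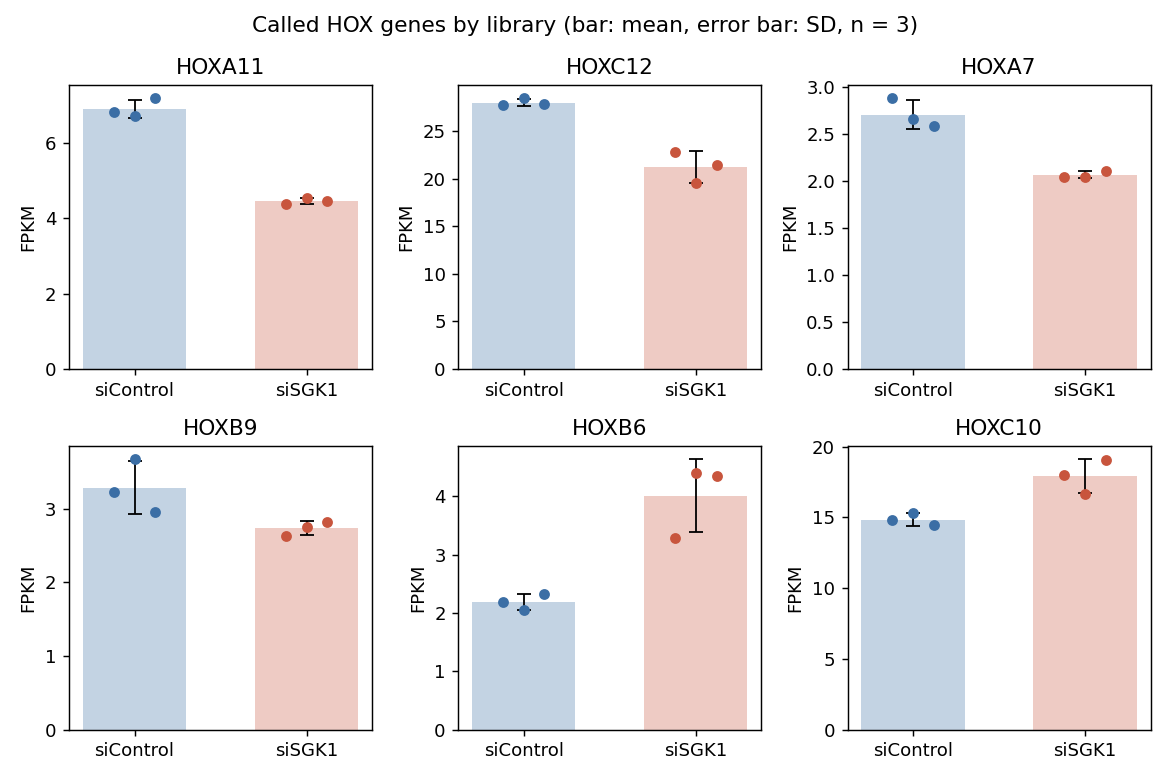
FPKM (vertical axis, from 0) of 6 of the 7 called HOX genes in each library; bars are means and error bars SD over 3 libraries per group. The siSGK1 libraries lie below the siControl libraries for HOXA11, HOXC12, HOXA7 and HOXB9 and above them for HOXB6 and HOXC10.

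The other 13 HOX genes, HOXA2, HOXA3, HOXA4, HOXA6, HOXB1, HOXB8, HOXC4, HOXC5, HOXC8, HOXD1, HOXD3, HOXD4 and HOXD12, had means below 1 FPKM and 0 to 156 reads per library. Of these, 5 are anterior, 7 central and 1 (HOXD12) posterior. The exonic bases they share with other genes run from 0% (HOXA2 among them) to 80.5% (HOXD4), so some of these levels may be understated. None was called when the level filter was removed. The closest were HOXB1, with 10, 12 and 8 reads in siControl and 5, 8 and 9 in siSGK1 (limma adjusted p = 0.185), and HOXC4, with 19, 17 and 24 reads against 31, 34 and 46 (limma adjusted p = 0.190), the only 2 of the 13 with an unadjusted p under 0.05.

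Ratios of FPKM between 2 genes in the same library are independent of library scaling, and they showed the uneven shifts within clusters. Permutation tests of ratios, here and below, used differences of log2(FPKM + 0.5), where the added 0.5 leaves some dependence on scaling. The HOXC10 to HOXC12 ratio of FPKM was 0.535, 0.538 and 0.517 in siControl and 0.787, 0.853 and 0.890 in siSGK1. HOXA11 to HOXA13 was 1.04, 0.985 and 1.06 in siControl and 0.638, 0.594 and 0.676 in siSGK1. In both pairs the groups did not overlap, nor did they in any of the 7 pairs of cluster genes compared (exact two-sided permutation p = 0.1 each, the smallest possible, and 0.1 after Benjamini-Hochberg adjustment), pairs that were chosen after their values were seen. Each pair holds at least 1 gene called in the test above, so the ratios are no separate evidence for it.

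Ratios between paralogs are given for 9 pairs taken because they hold a called gene, so they restate that call on another scale. The groups did not overlap for 6 of the 9 (exact permutation p = 0.1 each, the smallest possible, and 0.15 after Benjamini-Hochberg adjustment over the 9). The HOXA11 to HOXD11 ratio was 1.54, 1.63 and 1.73 in siControl and 0.991, 1.07 and 1.19 in siSGK1, and that of HOXA11 to HOXC11 was 2.94, 2.93 and 3.06 against 2.33, 2.31 and 2.02. The HOXB6 to HOXC6 ratio went from 2.13, 1.56 and 2.31 to 3.17, 3.44 and 3.66. The 3 pairs with overlap were HOXB9 with HOXC9, HOXB9 with HOXD9 and HOXC10 with HOXD10.

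Of 32 noncoding entries in the clusters, 11 were tested, and 3 rose while 1 fell, which is 36.4% called against 40.6% of all genes. HOTTIP, which is transcribed from the 5′ tip of HOXA beyond HOXA13, had 1.63, 1.90 and 1.84 FPKM in siControl and 2.74, 2.99 and 3.13 in siSGK1 (log2 change 0.59, SE 0.08, limma adjusted p = 5.33e-04). HOXC13-AS, antisense to HOXC13, had 8.50, 9.28 and 7.88 FPKM against 14.03, 12.2 and 11.4 (0.53, SE 0.08, limma adjusted p = 0.00157). HOTAIRM1, a noncoding RNA of the 3′ end of HOXA, had 7.34, 7.11 and 7.31 FPKM against 8.37, 9.75 and 8.43 (0.27, SE 0.06, limma adjusted p = 0.0112). The groups did not overlap for any of these 3, and the calls of HOTTIP and HOXC13-AS held in every alternative. HOTAIRM1 missed the threshold only in the read-based test with no level filter (adjusted p = 0.0623). The limit on assigning reads given for HOXA11 holds here as well. Other entries share 20.1% of the exonic bases of HOTTIP and 44.9% of those of HOTAIRM1, and HOXC13 shares 12.2% of those of HOXC13-AS.

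HOXC-AS1 was the noncoding gene that fell, from 2.00, 2.34 and 3.20 FPKM to 1.72, 1.94 and 1.245 (log2 change -0.49, SE 0.16, limma adjusted p = 0.0409). It rests on 27 to 51 reads per library, and the call was lost in 9 of 16 alternatives. HOTAIR, which lies between HOXC11 and HOXC12, was not called, with 1.48, 1.01 and 1.28 FPKM against 0.915, 1.26 and 0.955 (limma adjusted p = 0.290).

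Ratios of a coding gene to its noncoding neighbour are given as a description. For HOXA13 and HOXC13, which were not called, they restate the rise of HOTTIP and HOXC13-AS. HOXA13 to HOTTIP was 4.02, 3.59 and 3.69 in siControl and 2.51, 2.56 and 2.10 in siSGK1. HOXC13 to HOXC13-AS was 6.98, 6.13 and 7.21 against 3.93, 4.30 and 4.94. HOXA11 to HOXA11-AS was 1.16, 1.20 and 1.09 against 0.768, 0.865 and 0.794, and HOXB6 to HOXB-AS3 was 1.54, 1.34 and 1.64 against 2.18, 1.91 and 1.94. The groups were apart in these 4 of 5 pairs of this kind (exact permutation p = 0.1 for each of the 4, 0.125 after Benjamini-Hochberg adjustment over the 5).

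**Figure D4:**
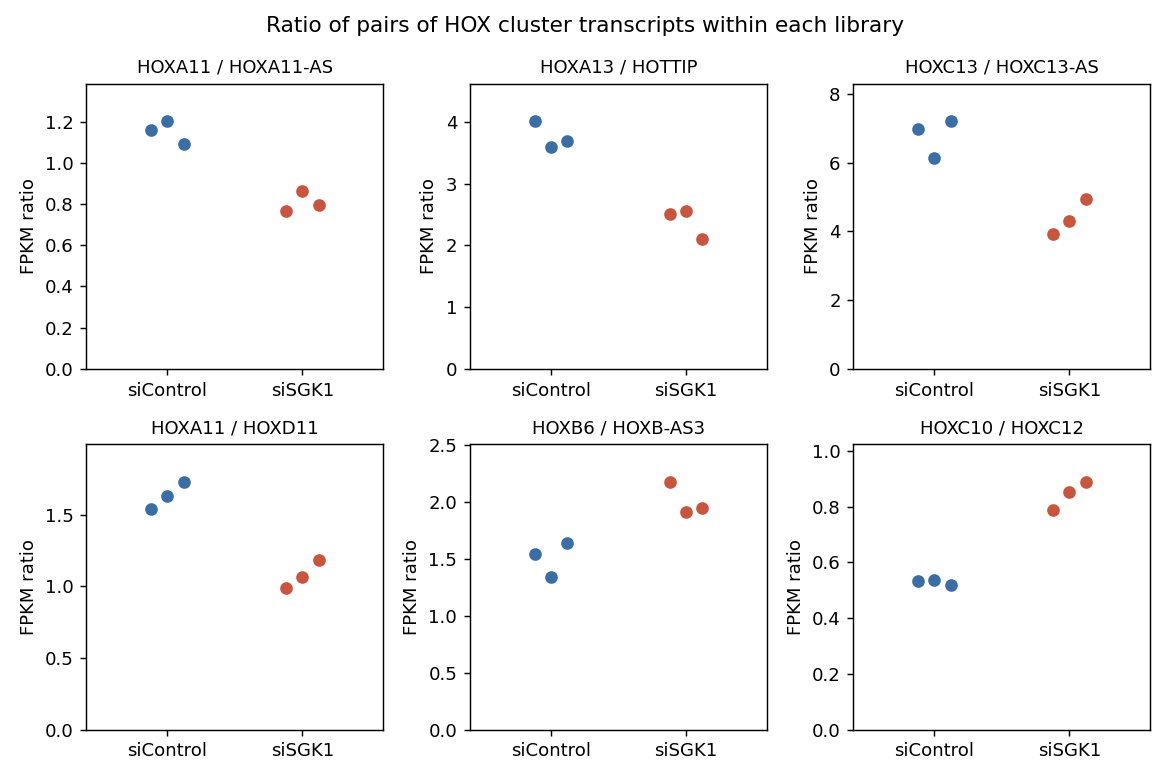
FPKM ratio (vertical axis, from 0) of 6 pairs of HOX cluster transcripts in each library, by group, with 1 point per library. HOXA11 to HOXA11-AS, HOXA13 to HOTTIP, HOXC13 to HOXC13-AS and HOXA11 to HOXD11 are lower in all siSGK1 libraries, HOXB6 to HOXB-AS3 and HOXC10 to HOXC12 are higher in all of them.

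Genes that regulate HOX clusters or act with HOX proteins are given next, as lists of known members. The Polycomb repressive complex 2, which methylates histone H3 lysine 27, had 8 of 11 members higher and none lower (72.7% called, against 40.6% of all genes), with a median log2 change of 0.28. Its 3 members with the smallest p were PHF19 (12.4 ± 0.33 to 17.7 ± 0.23 FPKM, 0.50), JARID2 (5.37 ± 0.20 to 7.55 ± 0.22, 0.46) and RBBP4 (8.53 ± 0.45 to 11.6 ± 0.43, 0.43), with limma adjusted p of 7.63e-05, 2.71e-04 and 5.06e-04. EZH2, its main methyltransferase, was not called (5.12 ± 0.32 and 5.51 ± 0.16 FPKM). Polycomb repressive complex 1, some forms of which bind H3 methylated at lysine 27, had 3 of 17 members higher (CBX6, CBX7 and PCGF6) and 1 lower (CBX8), or 23.5% called. The CBX8 call was lost in 10 of 17 alternatives, the replicate block among them, and the PCGF6 call held in 12 of 16. The counts of complex 1 were 7 and 0 after total-read scaling and 10 and 0 after TPM scaling. Those of complex 2 were 10 and 0, and 11 and 0. Under these 2 scalings 36.1% and 47.3% of all genes were higher, and 12.9% and 9.80% lower.

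MLL complex and H3K27 demethylase genes had 3 of 11 higher and 1 (KMT2B) lower (36.4% called, near the 40.6% of all genes). The higher calls held in 11 of 17 alternatives for PSIP1, 10 of 17 for WDR5 and 10 of 16 for RBBP5. The KMT2B call held in 13 of 16. The counts were 8 and 0 after total-read scaling and 9 and 0 after TPM scaling, where 36.1% and 47.3% of all genes were higher. Among the TALE cofactors, 2 of 6 tested rose and none fell (33.3% called, against 40.6% of all genes). MEIS3 went from 0.862 ± 0.064 to 1.503 ± 0.15 FPKM (log2 change 0.56, limma adjusted p = 0.00181) and PBX2 from 10.6 ± 0.87 to 13.3 ± 0.30 (0.31, limma adjusted p = 0.00423).

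Of 10 tested retinoid genes, 5 were lower and none higher in the deposited scaling, against 22.7% lower of all genes, and 3 of the 5 that were not called had positive values. CRABP2, which carries retinoic acid to its receptors, fell from 1283 ± 12.9 to 778 ± 65.0 FPKM (log2 change -0.72, limma adjusted p = 7.63e-05). ALDH1A3 and ALDH1A1, which make retinoic acid, fell from 24.1 ± 0.75 to 15.1 ± 0.59 FPKM (-0.65, limma adjusted p = 3.54e-05) and from 8.93 ± 0.89 to 6.66 ± 0.16 (-0.39, limma adjusted p = 0.00295). The retinoid split was 2 higher and 3 lower after total-read scaling and 4 and 2 after TPM scaling. All genes were 36.1% higher and 12.9% lower under the first of these, and 47.3% and 9.80% under the second. CRABP2 and ALDH1A3 were lower in all 17 alternatives. The part of these regulators in the HOX changes was not tested.

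Genes that flank the clusters but are not HOX genes had 3 of 7 tested higher and 1 lower, or 57.1% called against 40.6% of all genes. The counts were 5 and 1 after either total-read or TPM scaling, where 36.1% and 47.3% of all genes were higher. Beside HOXC, CALCOCO1 fell from 10.3 ± 0.40 to 6.90 ± 0.51 FPKM (log2 change -0.55, limma adjusted p = 2.80e-04) and CBX5, which encodes the heterochromatin protein HP1 alpha, rose from 14.3 ± 0.61 to 18.1 ± 1.4 (0.33, limma adjusted p = 0.00374). Beside HOXA, HIBADH went from 31.3 ± 0.92 to 35.3 ± 2.0 FPKM (0.17, limma adjusted p = 0.0340), a call lost in 8 of 17 alternatives. Of the 6 caudal and ParaHox genes, relatives of the HOX genes, only CDX2 was tested and it was not called (1.45 ± 0.12 and 1.31 ± 0.13 FPKM).

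The clusters also encode miR-196, a microRNA family known to repress HOX messages. The mature RNAs are shown, from RefSeq (GRCh38.p14), because their shared seed (bases 2 to 8, in capitals) defines the target match searched. MIR196A1 lies in HOXB, MIR196A2 in HOXC and MIR196B in HOXA.
hsa-miR-196a-5p: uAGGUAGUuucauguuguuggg
hsa-miR-196b-5p: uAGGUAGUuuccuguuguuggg
The seed match ACTACCT occurs in the longest annotated 3′ UTR (GENCODE 29) of 9 of the 39 HOX genes, 7 of them tested, against 7.39% of 10271 tested genes with such a UTR. HOXA7, which fell, holds 4 matches, and HOXB6, which rose, holds 1; the capitals below mark the match, and positions count from the first UTR base.
HOXA7, position 302: cgtccaaaatACTACCTagcacaggcc
HOXA7, position 339: gcacccccaaACTACCTatgtatccag
HOXA7, position 454: gaatctcactACTACCTactcccctaa
HOXA7, position 472: ctcccctaaaACTACCTattttgtgct
HOXB6, position 472: aggagcacatACTACCTagaagtaaga
Among the others with a match, HOXA5, HOXA9, HOXB7 and HOXB13 did not pass the test. Over all tested genes the median log2 change was 0.02 with the match and -0.01 without it. Mature microRNAs are not captured in polyadenylated libraries, and their level was not measured.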

How the data were processed

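The deposited table holds FPKM per gene for 6 libraries, 3 per group. Per the submitters' processing notes it was made with bcl2fastq 2.19, HISAT2 2.0.5 and featureCounts 1.5.0-p3 on hg19. The table's own positions equal GENCODE 29 (GRCh38) for 97.5% of 58039 shared genes and for 38 of 39 HOX genes (HOXB1 differs), so coordinates are given as GRCh38. FPKM times gene length gave whole reads (tolerance 0.001) for 100% of values. The library size implied by the authors' scaling was 0.952 to 0.967 times the total reads in siControl and 1.035 to 1.09 times in siSGK1. This factor thus differed between the groups without overlap. The 11945 genes whose mean FPKM reached 1 entered limma on log2(FPKM + 0.5) (limma 3.58.1, R 4.3.3, intensity trend, two-sided), Benjamini-Hochberg adjusted over all of them, with calls below 0.05. Folds on that scale understate low genes. The same fit was tested on simulated data. Reads were tested with limma-voom as an alternative: it called 2410 genes higher and 2969 lower, against 2143 and 2709. Intervals are 95% and, like the p-values, cover the spread between these libraries only. The HOX genes above the filter are named (1 of them, and 1 cofactor, are not reported here), with up to 3 genes of smallest p per other list, and further ones as counts needed them; EZH2, HOTAIR and the microRNA genes were named after their values were seen. Members and lists were chosen with earlier results of these data known. In all, 17 alternatives were run, 16 of them planned and 1 (limma-voom with no level filter) chosen after seeing the data.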

Additional observations from a re-analysis of the deposited data

How the results depend on the processing

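Of the called HOX genes, HOXA11, HOXB6, HOXC10 and HOXC12 kept direction and call in every alternative that tested them, and HOXA7 and HOXB9 lost theirs in 1 of 16 and 13 of 16. Counts of HOX genes called higher were 5 under total-read scaling and 8 under TPM scaling, against 3. The shares of all genes called higher were 36.1% and 47.3% under these scalings, against 17.9%. Counts called lower were 2 under TPM scaling and 2 with a mean FPKM of at least 5, where only 11 HOX genes were tested, against 4. The shares of all genes called lower were 9.80% and 30.8% in these settings, against 22.7%. Leaving out 1 library each gave 2 to 4 higher and 3 to 4 lower. Under total-read and TPM scaling, uncalled values turned positive for HOXA10 (0.063 and 0.13), HOXB2 (0.11 and 0.18), HOXC9 (0.092 and 0.16), HOXC13 (0.063 and 0.13) and HOXD11 (0.098 and 0.17), and HOXD13 did so under TPM scaling (0.049) and HOXC13 after quantile normalization (0.018); of these only HOXC13 under TPM scaling was then called (limma adjusted p = 0.0135). The median of all genes was 0.12 and 0.19 under these scalings. HOXA9 (0.25 and 0.32) and HOXB13 (0.23 and 0.31) were called higher under both scalings, and HOXA13 (0.26) and HOXB7 (0.22) under TPM scaling.

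With 1 library left out, the sign changed only for uncalled genes: HOXB2 ranged from -0.074 to 0.028, HOXB3 from -0.024 to 0.13, HOXB7 from -0.028 to 0.085, HOXD9 from -0.066 to 0.211, HOXD10 from -0.035 to 0.097 and HOXD11 from -0.071 to 0.034. Over all 16 alternatives that tested SGK1, of any kind, its change stayed between -1.28 and -0.93. The replicate block gave 3 HOX genes higher and 3 lower, with HOXB9 at an adjusted p of 0.0574 (limma), and 2011 genes higher and 2549 lower in all. Deviations of same-numbered libraries correlated at 0.116, 0.0135 and -0.103, and those of differently numbered libraries at -0.1585 to 0.149. Pairing by number was thus not visible, but these values cannot show whether the repeats were made in pairs. The 13 HOX genes below the level filter had at most 156 reads per library, and whether depth limits their calls was not tested.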

Other observations

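An earlier search of these same data put forward 4 heptamers in 3′ UTRs of changed genes, and each occurs in the longest 3′ UTR of 1 HOX gene. The heptamers CTATGCA and TATGCAA, put forward for genes that fell, are in HOXC11 and HOXC12. TCGGAGA and CGGAGAA, put forward for genes that rose, are in HOXB5 and in HOXC8, which was below the level filter. HOXC12 fell and the others were not called, so 1 of 3 tested HOX genes with such a heptamer passed the test. That compares with 26.9% of all tested HOX genes and 40.6% of all genes tested. The HOXC12 site is shown as the one in a gene that passed, with the heptamer in capitals.
HOXC12, position 2128: gggacaaagaTATGCAAtattctcttt
TATGCAA is in the 3′ UTR of 11.4% of tested genes, whose median log2 change was -0.03, against -0.01 for those without it. CTATGCA is in 8.51%, with medians of -0.08 and -0.0030. As the heptamers came from these data, the values are a description.

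The annotated hairpin genes of miR-196 gave few reads. MIR196A1 had 2 to 7 reads per library and MIR196A2 0 to 3. MIR196B, MIR10A and MIR615 were at 0 in all 6 libraries, in a library type that does not retain mature microRNAs. HOXA9 shares 100% of the exonic bases of MIR196B, and HOXB4 shares 100% of those of MIR10A. The limit on assigning reads in shared bases holds for MIR196B and MIR10A, so their values of 0 cannot show whether these hairpins were transcribed.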
